A study of Mus musculus with 16 samples.

Results

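The insulin-like growth factor (IGF) genes described here are the ligands Igf1 and Igf2, the receptors Igf1r and Igf2r, and the binding proteins Igfbp2, Igfbp3, Igfbp4, Igfbp5, Igfbp6 and Igfbp7. They were listed by name, as members of this signalling system, and the list was drawn up with earlier results of these data known. Of the 10 genes listed, 9 were matched to array spots through their RefSeq accessions and tested, among 25031 genes and unnamed targets in all. Igfbp6 was not analysed here.

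RNA came from the whole uterus of mice, with 4 arrays for each combination of a neonatal and an adult treatment. On postnatal days 1 to 5 pups were given genistein at 50 mg/kg, an isoflavone of soy with affinity for estrogen receptors, or only the carrier, 20 µl of corn oil, which the sample labels call saline. At the age of 6 weeks all mice, in every group, had their adrenals and ovaries removed. When 8 weeks old they received an intraperitoneal injection of dexamethasone at 1 mg/kg, a synthetic glucocorticoid, or 100 µl of saline, and the uterus was taken 4 h later. With 4 replicates each, the groups without genistein are named control vehicle and control dexamethasone here, and those with it genistein vehicle and genistein dexamethasone. Nothing in the labels says whether a replicate is 1 mouse or a pool, so p-values cover only the spread among the samples, which may be technical. The mice had no adrenal or ovarian hormones of their own, which limits the groups as models of an intact animal.

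IGF1 and IGF2 are secreted growth factors that signal mainly through the tyrosine kinase receptor IGF1R. IGF2R is a mannose 6-phosphate receptor that takes up IGF2 for lysosomal breakdown and carries no kinase. The binding proteins hold IGFs in the extracellular fluid, and can limit or prolong their action, until proteases such as PAPP-A cut them. In the uterus Igf1 is known as an estrogen-induced product of the stroma that drives epithelial growth.

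The array files give signals and no probe sequences, so the regulatory sequence shown is that of the RefSeq promoter windows of assembly GRCm38.p6. The table held 14 windows for the members, covering all 10, each with 250 bases before and 50 bases after an annotated start. The 250 bases before the start are printed 5′ to 3′ for the 3 genes called in a comparison below (Igf1, Igfbp5 and Igf2r) and for the only 2 windows with a match to the glucocorticoid receptor hexamer. Igf1 lies on the plus strand at chr10:87860861-87861110, Igfbp5 on the minus strand at chr1:72874866-72875115 and Igf2r on the minus strand at chr17:12769707-12769956. The most upstream of 4 Igf2 windows is on the minus strand at chr7:142666817-142667066, and the more upstream of 2 Igfbp2 windows is on the plus strand at chr1:72824230-72824479. Capitals mark the hexamer AGAACA or, read on the other strand, TGTTCT.
Igf1: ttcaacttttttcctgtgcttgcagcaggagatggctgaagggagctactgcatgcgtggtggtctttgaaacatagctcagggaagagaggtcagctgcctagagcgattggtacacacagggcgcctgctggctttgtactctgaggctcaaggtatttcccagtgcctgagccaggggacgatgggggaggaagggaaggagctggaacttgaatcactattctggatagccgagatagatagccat
Igfbp5: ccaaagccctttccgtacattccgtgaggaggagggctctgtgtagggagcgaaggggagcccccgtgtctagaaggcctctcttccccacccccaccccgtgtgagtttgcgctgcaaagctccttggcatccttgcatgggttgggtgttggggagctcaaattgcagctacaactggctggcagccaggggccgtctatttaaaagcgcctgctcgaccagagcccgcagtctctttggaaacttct
Igf2r: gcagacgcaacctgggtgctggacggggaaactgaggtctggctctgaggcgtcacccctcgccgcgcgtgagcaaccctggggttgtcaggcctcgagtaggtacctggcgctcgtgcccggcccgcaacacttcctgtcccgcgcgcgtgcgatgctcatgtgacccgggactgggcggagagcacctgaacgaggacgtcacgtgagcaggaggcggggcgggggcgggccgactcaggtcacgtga
Igf2: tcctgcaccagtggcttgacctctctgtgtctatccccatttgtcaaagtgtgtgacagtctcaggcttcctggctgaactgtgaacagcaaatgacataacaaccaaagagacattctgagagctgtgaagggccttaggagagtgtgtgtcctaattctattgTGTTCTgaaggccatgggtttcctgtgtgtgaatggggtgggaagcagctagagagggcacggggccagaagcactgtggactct
Igfbp2: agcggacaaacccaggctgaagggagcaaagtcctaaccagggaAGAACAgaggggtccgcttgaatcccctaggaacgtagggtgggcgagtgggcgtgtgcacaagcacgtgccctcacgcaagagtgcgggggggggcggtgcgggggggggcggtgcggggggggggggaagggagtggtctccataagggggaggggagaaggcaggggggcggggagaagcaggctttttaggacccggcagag

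The hexamer was found in 2 of 14 member windows, beginning at position -85 from the start in the Igf2 window and at position -206 in the Igfbp2 window, against 19% of all 32851 windows of that length. Both strands were searched. The palindromic element of AGAACA and TGTTCT with 3 bases between them was in 0 of 14 member windows and 0.00913% of all windows. The estrogen response element of GGTCA and TGACC with 3 bases between them was in 0 of 14 and 0.07%, and TATAAA was in the windows of Igfbp4 and Igfbp6, against 13.6% of all windows. The printed windows differed in base composition. Over the 300 bases, the Igf1 window had 6 CG pairs and 52.3% G or C, close to the medians of 7 pairs and 52.7% over all windows, whereas the Igf2r window had 34 CG pairs and 70.7% G or C. Igfbp2 and Igfbp5 are adjacent on chromosome 1, with 0 protein-coding genes between them in the RefSeq annotation.

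Levels are given as scaled log2 signal, in which each array's 75th percentile is subtracted from the log2 of the spot signal, so that 0 is the brightness of the upper quartile of spots. Differences are on the log2 scale throughout, and levels of different probes are not compared with each other. All 15 probes of the 9 measured members were well above background on 16 of 16 arrays, and none was saturated. The brightest probe stands for each gene. The 75th percentile ran from 948 to 2719 signal units, and correlations across genes from 0.962 to 0.988 within groups and from 0.933 to 0.986 between them. Uterine markers such as Esr1, Pgr and Hoxa10 were above background on all arrays in 8 of 8 cases, whereas 0 of 3 liver genes on the array were above background throughout. The dexamethasone response was present in both arms. Fkbp5, a cochaperone induced by the glucocorticoid receptor, rose by 4.44 in controls and by 4.56 after genistein on the log2 scale (limma adjusted p = 1.53e-05 and 1.45e-05).

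Igf1 was the member with the largest response, and it rose about as much in both arms. In control vehicle uteri its scaled log2 signal was 0.92, 0.53, 1.03 and 0.67 in replicates 1 to 4, with a mean of 0.79 ± 0.23 (SD, n = 4). In control dexamethasone uteri it was 2.72, 2.31, 3.09 and 3.51, with a mean of 2.91 ± 0.51 (SD, n = 4). Every dexamethasone array lay above every vehicle array. The rise was 2.12 ± 0.22 (SE) on the log2 scale, a 4.34-fold increase with a 95% confidence interval of 1.65 to 2.58 (log2) and a limma adjusted p of 5.74e-05. It ranked 149th among rises of 25031 features. In this bulk tissue, more cells that make a transcript and more transcript per cell cannot be told apart.

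After neonatal genistein, the vehicle arrays read 0.94, 1.24, 1.13 and 0.96 for Igf1, with a mean of 1.07 ± 0.14 (SD, n = 4). The genistein dexamethasone arrays read 3.04, 3.11, 3.04 and 3.49, with a mean of 3.17 ± 0.22 (SD, n = 4). The groups again did not overlap, and the rise of 2.10 ± 0.22 (SE) was 4.28-fold (adjusted p = 7.64e-05), the 104th largest of 25031. The difference between the rises in the 2 arms was -0.02 on the log2 scale, with a 95% confidence interval of -0.68 to 0.64 and an adjusted p of 0.982. With an interval of that width, the test does not show that the arms respond alike. Genistein by itself gave differences of 0.28 under vehicle (adjusted p = 0.52) and 0.26 under dexamethasone (0.388), both with overlapping groups. From low to high the group means of this brightest probe ran control vehicle, genistein vehicle, control dexamethasone and genistein dexamethasone. The vehicle groups did not differ beyond their spread, nor did the dexamethasone groups. Genistein vehicle and control dexamethasone did not overlap and were not tested against each other.

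The Igf1 value rests on many spots. Its main probe was printed 10 times on each array, and the SD between those spots on an array was 0.039 to 0.124, with a median of 0.0717, against an SD of 0.309 between arrays of a group. A separate Igf1 probe rose by 2.26 in controls (adjusted p = 1.98e-05) and by 2.10 after genistein (adjusted p = 4.5e-05), among 4.99% of single probes called there. The rise also appeared on every slide that held both treatments. It was 1.98, 2.18 and 2.42 on slides 1, 3 and 4 in controls, and 2.09, 2.15 and 2.25 on slides 2, 3 and 4 after genistein. With slide as a fixed block it was 2.18 in both arms.

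**Figure D1:**
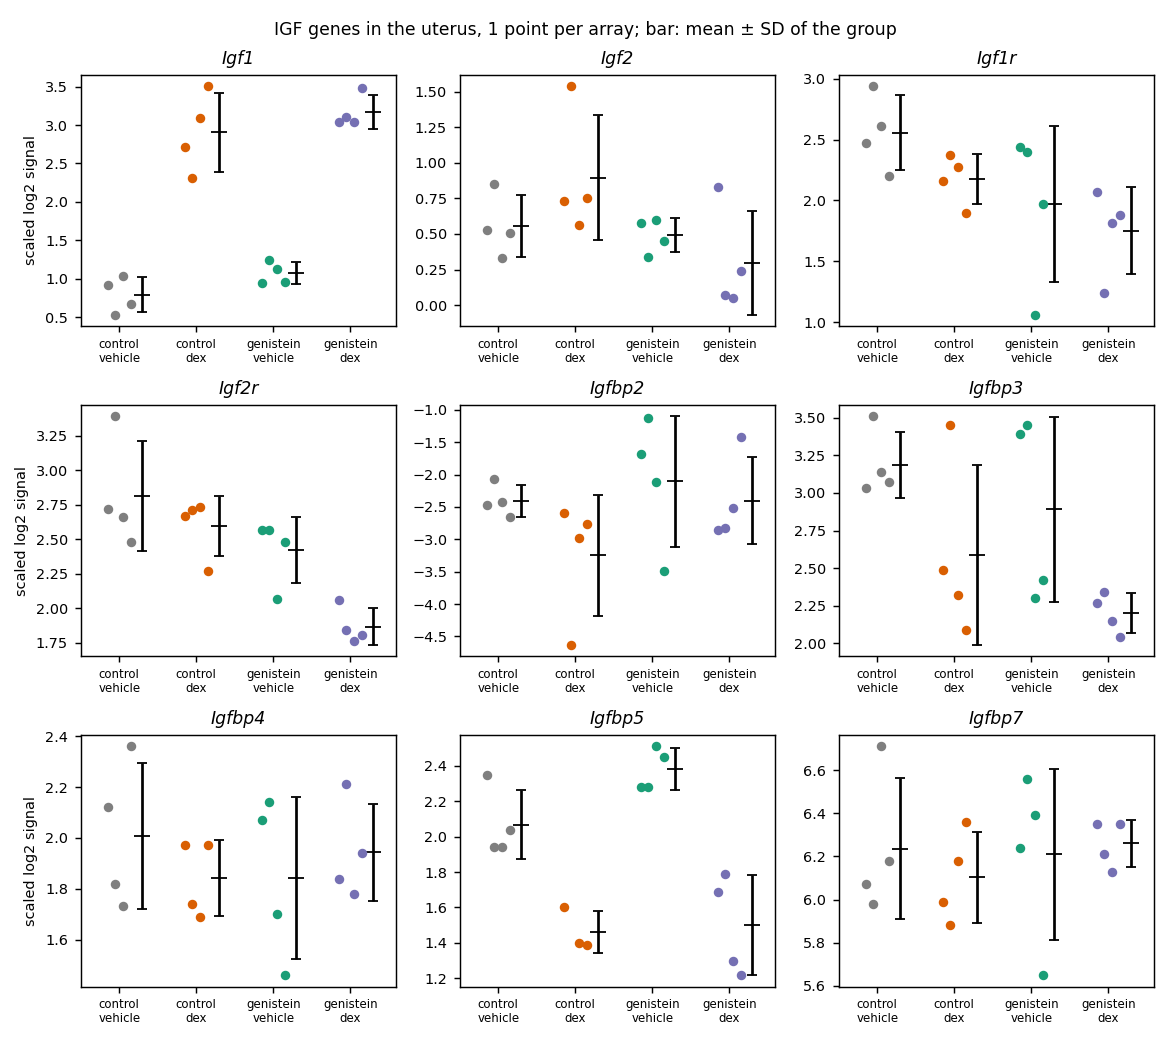
Scaled log2 signal (vertical axis, a separate range for each gene) of the 9 measured IGF genes in the 4 groups, with 1 point per array and bars for the mean ± SD. Igf1 is the only panel in which the vehicle and dexamethasone arrays are separated by more than 1 log2 unit in both arms, from 0.53 to 1.24 against 2.31 to 3.51. Igfbp5 is lower on all measured dexamethasone arrays than on any vehicle array, with no value for control dexamethasone replicate 2.

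Igf2, the fetal growth ligand that is expressed from the paternal allele, was not called in any comparison by its main probe. The control vehicle arrays read 0.53, 0.85, 0.33 and 0.51 and the control dexamethasone arrays 0.73, 1.54, 0.56 and 0.75, a difference of 0.34 ± 0.22 (SE; adjusted p = 0.277). The genistein vehicle arrays read 0.58, 0.34, 0.60 and 0.45 and the genistein dexamethasone arrays 0.83, 0.07, 0.05 and 0.24, a difference of -0.20 ± 0.22 (adjusted p = 0.731). Replicate 2 of control dexamethasone was the highest array of all, and replicate 1 of genistein dexamethasone stood above the other arrays of its group. The difference between arms was -0.54 (95% confidence interval -1.20 to 0.13; adjusted p = 0.407).

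Under dexamethasone, Igf2 was 0.60 lower on the log2 scale after genistein than in controls by point estimate (-0.60 ± 0.22, SE), with overlapping groups and an adjusted p of 0.0622. A dimmer Igf2 probe gave -0.75 ± 0.22 in the same comparison, which passed the threshold (adjusted p = 0.0254), as did 22.7% of single probes. The mean of both probes also passed (-0.68; adjusted p = 0.0378). On the main probe the difference passed without genistein dexamethasone replicate 1 (-0.78; adjusted p = 0.0226), and with all arrays under array weights (-0.65; 0.00965) or a variance trend (-0.60; 0.0448). It did not pass in 27 of 31 alternatives, among them slide as a fixed block (-0.60; adjusted p = 0.119). Over all alternatives it ran from -0.78 to -0.39, with adjusted p-values from 0.00965 to 0.207. In controls the dimmer probe read -1.39, -1.10, -1.39 and -1.17 under vehicle and -0.99, -0.01, -1.07 and -0.82 under dexamethasone, groups that did not overlap (0.54; adjusted p = 0.0846).

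Igf1r, the signalling receptor, had its highest levels in control vehicle uteri. Its brightest probe read 2.47, 2.94, 2.61 and 2.20 there, 2.16, 2.37, 2.27 and 1.90 in control dexamethasone, 2.44, 2.40, 1.06 and 1.97 in genistein vehicle, and 2.07, 1.24, 1.81 and 1.88 in genistein dexamethasone. The groups overlapped in every comparison by this probe, and none of the differences passed the threshold. Dexamethasone in controls gave -0.38 ± 0.28 (SE; adjusted p = 0.346). The other 2 Igf1r probes were lower on every control dexamethasone array than on any control vehicle array. They fell by 0.62 (adjusted p = 0.0352) and by 0.72 (adjusted p = 0.027), among 23.8% of the 33362 single probes called in that comparison. After genistein the same 2 probes gave -0.12 and -0.33 (adjusted p = 0.84 and 0.469). For these probes the differences between arms were 0.5 ± 0.28 and 0.39 ± 0.3 (SE; limma adjusted p = 0.384 and 0.536). Neither passed the threshold, so a difference between the arms is not shown. The dimmest probe also stood lower on all genistein vehicle arrays (-2.47, -2.65, -2.95 and -2.50) than on any control vehicle array (-2.02, -1.22, -2.10 and -2.22), with a difference of -0.75 that did not pass the adjustment (0.339).

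Igf2r, the scavenging receptor for IGF2, was lowest in uteri exposed to both agents. Control vehicle arrays read 2.72, 3.39, 2.66 and 2.48 (mean 2.81 ± 0.40, SD, n = 4) and control dexamethasone arrays 2.67, 2.71, 2.73 and 2.27 (2.60 ± 0.22). Genistein vehicle arrays read 2.57, 2.57, 2.07 and 2.48 (2.43 ± 0.24), and genistein dexamethasone arrays 2.06, 1.84, 1.76 and 1.81 (1.87 ± 0.13). The genistein dexamethasone arrays lay below every array of the other 3 groups, with 2.06 in replicate 1 against 2.07 in genistein vehicle replicate 3 as the closest values. Under dexamethasone, Igf2r fell by 0.73 ± 0.19 (SE) on the log2 scale after genistein relative to controls, a 1.66-fold decrease with a 95% confidence interval of -1.14 to -0.32 (adjusted p = 0.018).

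Slides 3 and 4 were the only ones with both groups of that comparison, and gave -0.83 and -0.92 for Igf2r. With slide as a fixed block the difference was -0.92 (adjusted p = 0.0148). Without control dexamethasone replicates 2 and 3 together, the arrays with the highest adipocyte marker levels, it was -0.61 and did not pass (adjusted p = 0.131). Dexamethasone after genistein gave -0.56 ± 0.19 (SE; adjusted p = 0.12), which passed with array weights (-0.73; 0.0113), and dexamethasone in controls -0.21 ± 0.19 (0.441). The difference between these 2 effects was -0.34, with a 95% confidence interval of -0.93 to 0.24 and an adjusted p of 0.543. Genistein under vehicle gave -0.39 ± 0.19 (adjusted p = 0.371). By their means both control groups stood above both genistein groups, and vehicle above dexamethasone within each arm. Neither vehicle against dexamethasone pair passed the threshold, and control dexamethasone was not tested against genistein vehicle.

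Igfbp5, a matrix-bound binding protein of stromal and muscle cells, fell with dexamethasone in both arms. Control vehicle arrays read 2.35, 1.94, 1.94 and 2.04 (mean 2.07 ± 0.19, SD, n = 4). Control dexamethasone arrays read 1.60, 1.4 and 1.39 in replicates 1, 3 and 4 (1.46 ± 0.12, SD, n = 3), because the spot of replicate 2 was marked as an outlier by the scanner software and was treated as missing in the fit. All 3 measured arrays lay below the vehicle arrays. The fall was 0.61 ± 0.17 (SE), or 1.52-fold, with a 95% confidence interval of -0.97 to -0.25 and an adjusted p of 0.0208.

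The Igfbp5 call in controls depended on single arrays. It was lost without control vehicle replicate 1 (-0.51; adjusted p = 0.0654), without control dexamethasone replicate 3 (-0.58; 0.0641) and without replicate 4 (-0.57; 0.0692), and under median scaling (-0.39; 0.163) and normexp (-0.52; 0.0845). Within slides 1, 3 and 4 the differences were -0.96, -0.35 and -0.64, and with slide as a fixed block -0.65 (adjusted p = 0.0436). The direction was the same throughout.

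After genistein, Igfbp5 read 2.28, 2.28, 2.51 and 2.45 under vehicle (mean 2.38 ± 0.12, SD, n = 4) and 1.69, 1.79, 1.3 and 1.22 under dexamethasone (1.5 ± 0.28). All 4 dexamethasone arrays lay below the vehicle arrays, and the fall was 0.88 ± 0.15 (SE), or 1.84-fold (95% confidence interval -1.21 to -0.55; adjusted p = 0.00484). The difference between the falls in the 2 arms was -0.27, with an interval of -0.76 to 0.22 and an adjusted p of 0.571. The call held when any single array was left out, and the differences within slides 2, 3 and 4 were -0.78, -0.66 and -1.06. The vehicle groups differed by 0.31 ± 0.15, higher after genistein, with an adjusted p of 0.372, and the dexamethasone groups by 0.04 ± 0.17 (0.877).

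A dimmer Igfbp5 probe did not repeat these calls. It gave -0.45 ± 0.32 (SE) in controls (adjusted p = 0.318) and -0.23 ± 0.32 after genistein (0.791), and it read from -4.95 to -3.36 over all arrays, well above background on each of the 16. For genistein the dimmer probe gave 0.43 ± 0.32 under vehicle and 0.65 ± 0.32 under dexamethasone. Neither passed the threshold (limma adjusted p = 0.512 and 0.148), though the 2 dexamethasone groups did not overlap by this probe. When the bright probe was dropped for its missing array, or when the mean of both probes was used, Igfbp5 was no longer called in either arm.

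**Figure D2:**
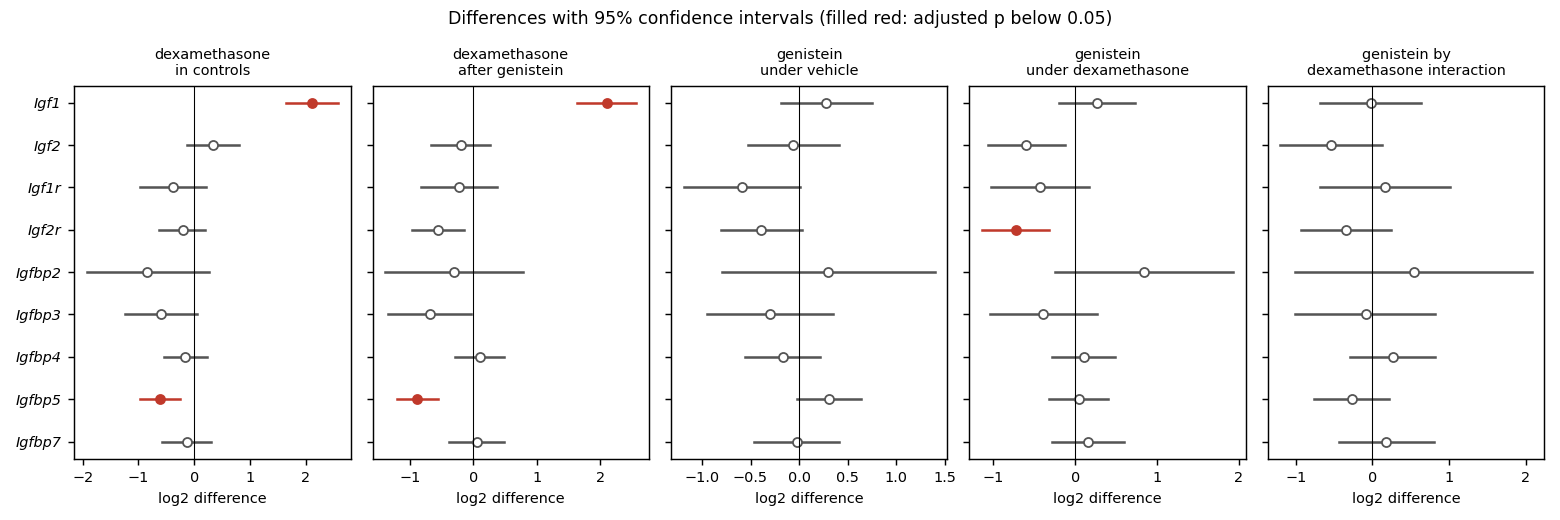
Log2 differences of the 9 IGF genes (points) with 95% confidence intervals (lines) in 5 comparisons, 1 panel each, filled red where the adjusted p is below 0.05. Igf1 lies at 2.12 and 2.10 and Igfbp5 at -0.61 and -0.88 in the dexamethasone panels, Igf2r at -0.73 is the only filled point in the genistein panels, and no point is filled in the interaction panel.

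Igfbp3, the main carrier of circulating IGFs, did not pass the threshold in any comparison with all arrays weighted equally. Control vehicle arrays read 3.03, 3.51, 3.14 and 3.07. In control dexamethasone 3 arrays read 2.49, 2.32 and 2.09 while replicate 2 read 3.45, inside the vehicle range. The difference was -0.60 ± 0.30 (SE; adjusted p = 0.164), and without that replicate it was -0.89 and passed the threshold (adjusted p = 0.0317), as it did with array weights (-0.75; 0.034). With single arrays left out it ran from -0.89 to -0.43, with adjusted p-values up to 0.376. Genistein vehicle replicates 1 and 2 read 3.39 and 3.45 and replicates 3 and 4 read 2.30 and 2.42, and genistein dexamethasone arrays read 2.27, 2.34, 2.15 and 2.04, for a difference of -0.69 ± 0.30 (adjusted p = 0.24). With single arrays left out that difference ran from -0.89 to -0.51, with adjusted p-values from 0.133 to 0.449. Without genistein vehicle replicates 3 and 4 it was -1.22 and passed (adjusted p = 0.0334), and with array weights -1.06 (0.00455). Those 2 replicates also stood apart in the mean level of 10 epithelial genes, 3.26 and 3.20 against 2.36 and 2.30 in replicates 1 and 2. Replicates 3 and 4 were lower in smooth muscle genes, at 3.27 and 3.74 against 4.20 and 4.23. Their stromal level was 3.87 and 3.48 against 4.12 and 4.16, and their endothelial level 0.44 and 0.12 against 0.73 and 0.63. Macrophage genes were higher, at 0.59 and 0.47 against 0.12 and -0.32, while adipocyte and uterine levels overlapped. The part of these cell types in the Igfbp3 values was not tested.

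Igfbp2, a binding protein of many epithelia, was the most variable member. Its levels ran from -2.66 to -2.07 in control vehicle, from -4.63 to -2.60 in control dexamethasone, from -3.49 to -1.13 in genistein vehicle and from -2.85 to -1.42 in genistein dexamethasone. Its largest differences were -0.84 ± 0.51 (SE) for dexamethasone in controls (adjusted p = 0.249) and 0.84 ± 0.51 for genistein under dexamethasone (0.238), and these share the control dexamethasone group with its low replicate 2. The SE of 0.51 was the widest of the 9 members in those comparisons.

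Igfbp4, an inhibitory binding protein and a substrate of the protease encoded by Pappa, ranged from 1.46 to 2.36 over all arrays. Its differences in the 4 comparisons of 2 groups lay between -0.17 and 0.10, with adjusted p-values from 0.545 to 0.856. A dimmer Igfbp4 probe was lower on all control dexamethasone arrays (0.08, -0.19, -0.58 and -0.06) than on any control vehicle array (0.76, 0.20, 0.38 and 0.58), and its difference of -0.67 ± 0.25 did not pass the adjustment (0.0661). Igfbp7, which binds IGFs weakly and is abundant in vessels and stroma, ranged from 5.65 to 6.71. Its differences in the 4 comparisons of 2 groups lay between -0.13 and 0.16, with adjusted p-values from 0.59 to 0.956.

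**Figure D3:**
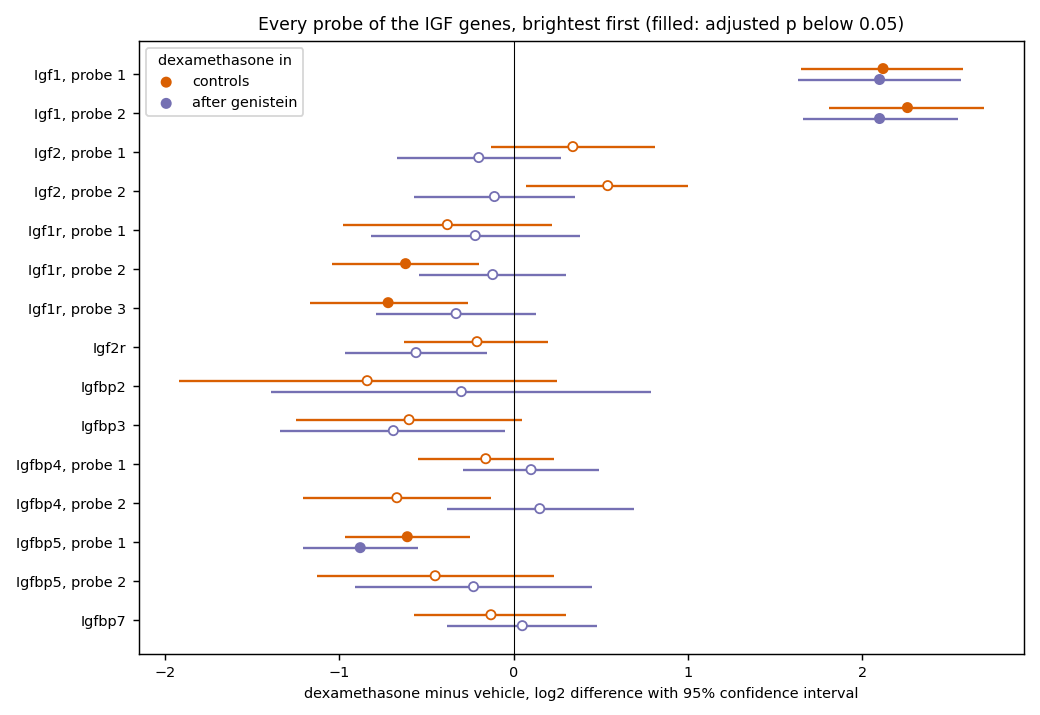
Log2 difference between dexamethasone and vehicle (horizontal axis) with its 95% confidence interval for each of the 15 probes of the IGF genes, in controls (orange) and after genistein (purple), filled where the adjusted p is below 0.05. Both Igf1 probes lie near 2 in both arms, the dimmer 2 Igf1r probes are called in controls (-0.62 and -0.72), and the second Igfbp5 probe is not called in either arm.

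The share of members called was close to that of all features in controls and above it after genistein. The members were chosen with earlier results of these data known, so these shares are descriptions and not tests of the IGF genes. In controls, dexamethasone gave 2 calls among 9 members, Igf1 higher and Igfbp5 lower, where 23% of all features were called, 8.61% higher and 14.4% lower. The members' median difference was -0.21 and that of all features -0.16. After genistein, dexamethasone again gave 2 calls, the same 2 genes, against 5.32% of all features, 2.52% higher and 2.8% lower, with medians of -0.22 and -0.02. With the mean of a gene's probes, or without probes that missed an array, only 1 member was called there, Igf1. The interaction gave 0 calls among the members in limma, and 0% of all features were called. By the brightest probes 0 of 9 members had an unadjusted p below 0.05 there, against 15.5% of all features. Genistein under vehicle gave 0 calls in limma, and 0.004% of all features were called. At an unadjusted p below 0.05 it had 0 of 9, against 13.8% of all features. Genistein under dexamethasone gave 1 call, Igf2r lower, against 22.8% of all features, 16.4% higher and 6.47% lower, with medians of 0.04 and 0.11.

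Groups did not overlap for 2 of 9 members in controls under dexamethasone against vehicle, where 28.5% of all features did not overlap. The count was 3 of 9 after genistein (Igf1, Igfbp5 and Igf2r; 12.4% of all features), 0 of 9 for genistein under vehicle (4.82%) and 1 of 9 under dexamethasone (28.7%). In controls the median of all features shifted with the scaling, from -0.156 with the 75th percentile to -0.0465 with quantile normalization and 0.072 with median scaling. The share of called features that were higher moved with it, from 37.4% to 45.8% and 65.2%. For genistein under dexamethasone that share was 71.6%, 58.7% and 55.6%. Relative to the median of all features, Igf1 stood at 2.27 and Igfbp5 at -0.45 in controls, at 2.11 and -0.86 after genistein, and Igf2r at -0.84 for genistein under dexamethasone.

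Genes around the IGF receptors were taken from a list of 59 carriers, proteases, adaptors, kinases and neighbours, of which 51 were tested. In controls dexamethasone changed 16 of them, 6 higher and 10 lower, against 23% of all features. Without control vehicle replicate 1 or without control dexamethasone replicate 3 the count was 10. The receptor adaptors and inhibitors had 6 calls among 11 tested, 5 of them lower, where 14.4% of all features were called lower. After genistein they had 0 calls among 11, where 5.32% of all features were called. The interaction gave 0 calls among these 11 and in 0% of all features, so a difference between the arms is not shown. The other parts of the list in controls had 3 of 10 (carriers and proteases), 2 of 6 (insulin-like hormones and receptors) and 4 of 15 (PI3K, AKT and FOXO). The growth hormone arm had 0 of 6, and Igf2 mRNA binding and imprinted neighbours 1 of 3. Gab1, a docking protein for activated receptors, fell by 1.15 (adjusted p = 0.00174), and Grb14, an adaptor that inhibits the insulin receptor, fell by 1.15 (adjusted p = 0.00516). Akt2, a kinase downstream of PI3K, fell by 1.07 (adjusted p = 0.00113). Its control vehicle arrays read 2.10, 1.51, 1.93 and 1.57 and its control dexamethasone arrays 0.66, 1.07, 0.62 and 0.51.

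Irs4, an insulin receptor substrate, fell by 1.27 in controls (adjusted p = 0.00365), but the mean of its probes gave -0.41 (0.211). Pik3r1, a regulatory subunit of PI3K, rose by 1.23 in controls (adjusted p = 0.000306) and by 0.80 after genistein (0.0102) by its brightest probe. The mean of its probes gave 0.17 and 0.49, neither of them past the threshold (adjusted p = 0.649 and 0.3). The call after genistein was also lost under normexp (0.66; 0.112), in a fit of only the groups compared (0.80; 0.0798) and without genistein vehicle replicates 3 and 4 (0.52; 0.0574). Igfbp1, the binding protein of liver and decidua, was not well above background on any control vehicle array and was so on all 4 control dexamethasone arrays. It was at least 1.43-fold higher there (adjusted p = 0.0145), with group means of -6.60 and -8.32. Its direction turned with normexp background correction (-0.97; adjusted p = 0.213), and the call was lost with slide as a fixed block (1.64; 0.0556).

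After genistein, dexamethasone changed 4 of the 51 listed genes, 2 in each direction, against 5.32% of all features. Pappa, the protease that cuts Igfbp4 and releases bound IGF, read 1.72, 1.91, 1.06 and 0.06 under vehicle and 3.35, 3.19, 3.34 and 3.35 under dexamethasone. It rose by 2.12 ± 0.31 (SE), a 4.35-fold increase (adjusted p = 0.00104). Without vehicle replicates 3 and 4, the lowest 2 and those apart in epithelial and other cell type markers, the rise was 1.49 and still passed the threshold. In controls Pappa read 1.59, 1.88, 1.84 and 1.77 under vehicle and 3.25, 2.54, 2.79 and 2.61 under dexamethasone, a rise of 1.03 ± 0.31 (adjusted p = 0.0285). That call in controls was lost without control vehicle replicate 1 (0.96; 0.0792), without control dexamethasone replicate 1 (0.88; 0.0788), without replicate 3 (1.03; 0.0567) and without replicates 2 and 3 together (1.16; 0.0692). The groups did not overlap in either arm. The difference between the rises was 1.09 ± 0.43, with an adjusted p of 0.26.

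Airn, the noncoding RNA transcribed antisense to Igf2r from the paternal allele, read -2, -2.25, -2.67 and -2.33 under vehicle and -3.15, -3.68, -3.95 and -3.54 under dexamethasone after genistein. It fell by 1.27 ± 0.19 (SE; adjusted p = 0.00151), but under normexp the difference was -0.48 and did not pass (0.364). In controls Airn fell by 0.60 ± 0.19 (adjusted p = 0.0372), a call that was lost when any of 6 single arrays was left out, with adjusted p-values up to 0.101, without control dexamethasone replicates 2 and 3 together (-0.72; 0.0662), and under quantile normalization (-0.47; 0.098), median scaling (-0.37; 0.161) and normexp (-0.81; 0.0881). Socs2, a feedback inhibitor of growth hormone signalling, fell by 1.00 ± 0.17 after genistein (adjusted p = 0.0037) and gave 0.02 ± 0.17 in controls (0.957). The difference for Socs2 between arms was -1.02 ± 0.24, with an adjusted p of 0.166.

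**Figure D4:**
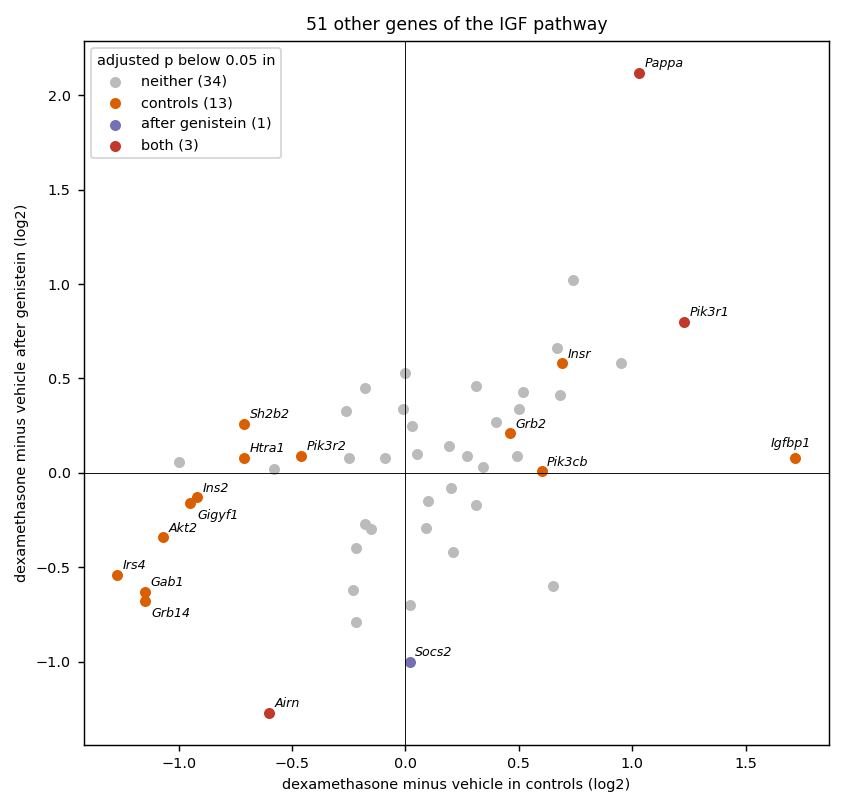
Log2 difference between dexamethasone and vehicle in controls (horizontal axis) and after genistein (vertical axis) for 51 other genes of the IGF pathway, 1 point per gene, coloured by the comparison in which the gene was called. Pappa, Pik3r1 and Airn were called in both arms, Socs2 only after genistein, and 13 genes only in controls; differences between the arms were not called for any of the 51.

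The interaction gave 0 calls among the 51 genes in limma, with 11 at an unadjusted p below 0.05 (15.5% of all features). Genistein under vehicle also gave 0 calls in limma, with 4 at an unadjusted p below 0.05 (13.8% of all features). Under dexamethasone, genistein changed 13, 8 higher and 5 lower, against 22.8% of all features. Sh2b2, an adaptor of the insulin receptor, was higher by 0.93 (adjusted p = 0.00486), and Irs4 by 1.05 (0.0118; 0.27 by the mean of its probes, 0.396). Foxo4, a transcription factor restrained by AKT, was higher by 1.34 (adjusted p = 0.0143), a call lost under normexp (1.46; 0.0542) and without control dexamethasone replicates 2 and 3 (1.43; 0.0601). Pappa2, a relative of Pappa, was not above background on any control dexamethasone array and was at least 2.45-fold higher in genistein dexamethasone (adjusted p = 0.0165). That call was lost without control dexamethasone replicate 3 (1.47; 0.051), without replicates 2 and 3 together (1.70; 0.0601), under quantile normalization (1.18; 0.115) and under normexp (1.51; 0.0755). Airn and Socs2 were lower by -0.82 and -0.78 (adjusted p = 0.0113 and 0.00922). Neither passed without control dexamethasone replicates 2 and 3 (-0.70 and 0.0848 for Airn, -0.74 and 0.0528 for Socs2), and under normexp Airn gave 0 (0.994). This comparison and the one of dexamethasone in controls share the control dexamethasone arrays.

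Levels of adipocyte, muscle and other marker genes on the same arrays are given beside the IGF genes. Of 15 adipocyte genes, 13 were tested. Their mean level per array ran from -3.52 to -0.50 in control vehicle, from -1.03 to 2.27 in control dexamethasone, from -0.63 to 0.55 in genistein vehicle and from -1.65 to 0.92 in genistein dexamethasone. In controls 8 of 13 rose with dexamethasone, against 8.61% of all features, and after genistein 0 did, against 2.52%. The defining adipocyte marker Adipoq was above background on 16 of 16 arrays.

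The mean level of 9 smooth muscle genes ran from 4.08 to 4.45 in control vehicle, from 2.97 to 3.99 in control dexamethasone, from 3.27 to 4.23 in genistein vehicle and from 3.09 to 4.35 in genistein dexamethasone. In controls 2 of 9 fell with dexamethasone, against 14.4% of all features, and after genistein 0 did, against 2.8%. Of 9 endothelial genes, 4 fell with dexamethasone in controls and 1 after genistein. In controls 1 of 11 stromal genes rose and 2 fell, and 2 of 12 macrophage genes rose and 1 fell. After genistein 3 of 11 stromal genes rose and 2 fell, and 1 of 12 macrophage genes rose and 2 fell. Of 8 uterine genes, 1 rose and 1 fell in controls and 3 rose after genistein. All features called higher were 8.61% in controls and 2.52% after genistein. Among 10 epithelial genes 0 were called in either arm. For genistein under dexamethasone, the comparison in which Igf2r was lower, 0 of 13 adipocyte, 0 of 9 smooth muscle, 0 of 11 stromal and 0 of 10 epithelial genes were called. In that comparison 3 of 7 mast cell and lymphocyte genes and 3 of 8 ovary and oviduct genes were higher, with median differences of 1.05 and 0.85, against 16.4% of all features called higher. Of 12 macrophage genes 2 were higher and 2 lower, 1 of 9 endothelial genes was higher, and 1 of 8 uterine genes was higher. The part of any of these cell types in the differences of Igf1, Igf1r, Igf2r, Igfbp3 and Igfbp5 was not tested.

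**Figure D5:**
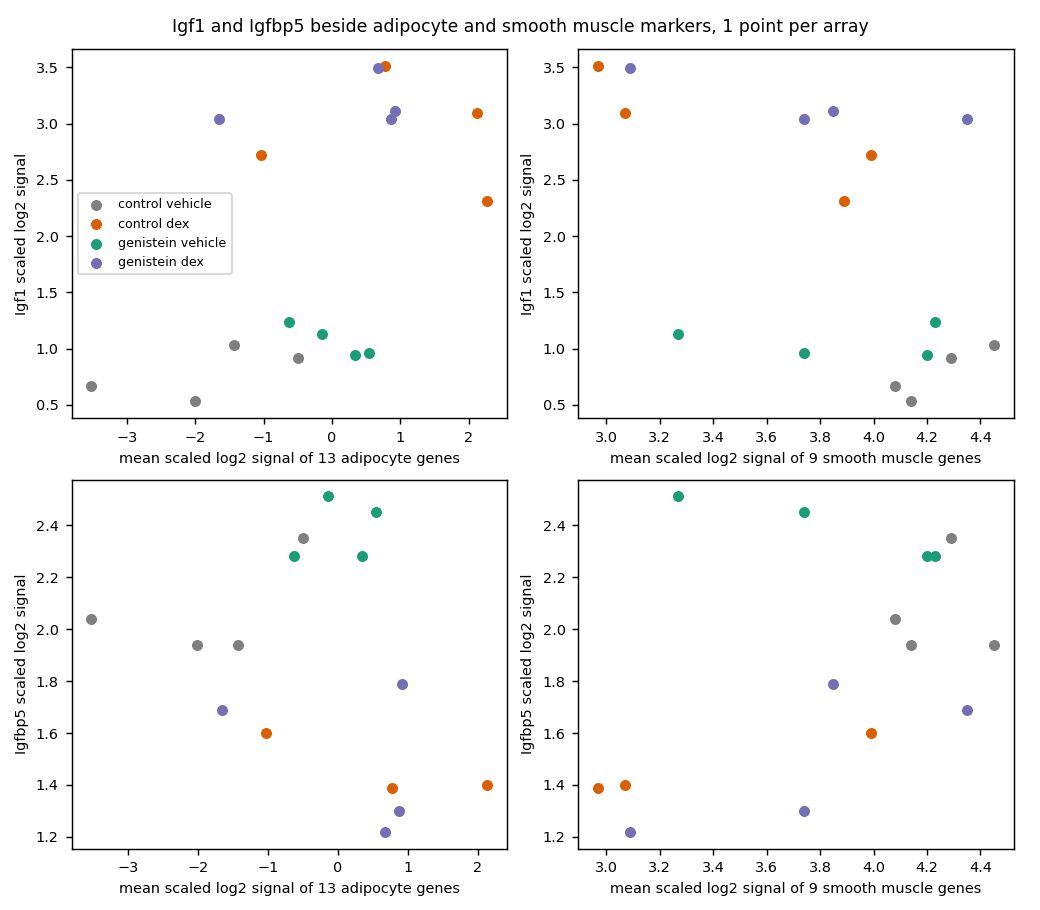
Scaled log2 signal of Igf1 (top) and Igfbp5 (bottom) against the mean scaled log2 signal of 13 adipocyte genes (left) and 9 smooth muscle genes (right), 1 point per array, coloured by group. On the dexamethasone arrays Igf1 runs from 2.31 to 3.51 and the adipocyte level from -1.65 to 2.27.

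Across the 16 arrays, the genes with a symbol whose level was most like that of Igf1 were Cth (Pearson r = 0.97), Ctla2b (0.967) and Ctla2a (0.967), of 16282 searched. For Igf2r they were Pakap (0.914), Zfr2 (0.908) and Rab11fip5 (0.877), and for Igfbp5, over 15 arrays, Fam217a (0.953), Gapt (0.932) and Sfrp4 (0.928). Among the members, Igf1r and Igf2r (0.81), Igf2r and Igfbp3 (0.73) and Igf1r and Igfbp3 (0.72) had the highest correlations, and Igf1 and Igfbp5 the lowest (-0.85). These are descriptions over arrays that share groups and scaling, and no test was made of them.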

How the data were processed

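RNA of 16 uteri samples, 4 per group, was hybridised to single-colour Agilent arrays of design 014868 from 400 ng of total RNA, per the labels' protocols. The deposited intensity values are, per the file headers, spot signals that Feature Extraction 12.0.0.7 background-subtracted and detrended. The submitters' processing notes name version 9.5. The deposited value table held the same intensity values, with a largest difference of 0. Outlier and background flags, coded 0 or 1 per the file headers, served as filters. Of 45018 spots per array, 1639 are controls, and no values per sample were left unused.

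Log2 signals were scaled by each array's 75th percentile, outlier spots were set to missing and repeated spots averaged. A probe was kept when well above background on at least 4 arrays and measured on at least 3 arrays of every group. The latter was chosen after the data were seen, because 764 kept probes, the bright Igfbp5 probe among them, miss an array. Symbols came from joining RefSeq accessions to the GRCm38.p6 annotation (28223 of 29245 probes). Group means over all 16 arrays were fitted in limma 3.58.1 (R 4.3.3) with two-sided moderated tests and Benjamini-Hochberg adjustment over 25031 features, called below 0.05. The pipeline was tested on simulated data. Figures used matplotlib 3.10.9 in Python 3.11.15. The number of arrays limits the precision.

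The members, the 59 listed genes and the markers were chosen with earlier results of these data known. All members are named. Of the listed genes, those named are the 6 largest called differences per comparison, and genes called in both dexamethasone comparisons. A group with no array above background gives a lower bound, set at the faintest signal well above background. Replicate numbers were not used to pair the samples in the main fit. Between samples of the same number, correlations of deviations from group means ran from -0.128 to 0.358. Samples of different numbers were not compared, so whether the numbers mark pairs is unknown.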

Additional observations from a re-analysis of the deposited data

Results flagged for a closer look

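In 35 sets of 4 arrays (a member in a group), 2 had an array far from the other 3, by a gap, as a share of the set's range, above Dixon's critical value for the 95 percent level. Chance alone gives about 1 such set in 20.

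Igf1 in genistein dexamethasone replicate 4 read 3.49, above the 3.04 to 3.11 of the other 3 arrays, with a gap of 0.835 of the range. Igf2r in control dexamethasone replicate 4 read 2.27, below the 2.67 to 2.73 of the others, with a gap of 0.874. Both calls that use these arrays kept their direction and side of the threshold when the array was left out.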

How the results depend on the processing

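Each comparison was recomputed under 31 alternatives, and the interaction under 30. Igf1 rose with dexamethasone under all of them, by 1.92 to 2.34 in controls and by 1.99 to 2.18 after genistein. The calls are limited by 4 arrays per group. For gene results, 2006 recomputed values kept their direction and side of the threshold, 48 lost a call, 9 gained one and 64 changed sign, most of them near 0. The cause of these changes was not tested, except where fewer probes or arrays were used by construction. Alternatives added after the data were seen were dropping probes with a missing array and testing every probe by itself.

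The number of members called in controls was 1 instead of 2 under median scaling, normexp, the mean of probes, dropping probes with a missing array and without control dexamethasone replicates 2 and 3, and ran from 1 to 3 with single arrays left out. After genistein it was 1 with the mean of probes and with missing-array probes dropped, and 4 with array weights. For genistein under dexamethasone it was 2 with the mean of probes, array weights or a variance trend, 0 without control dexamethasone replicates 2 and 3, and 1 to 2 with single arrays left out. The listed pathway genes called were 10 in controls under normexp (10 to 18 with single arrays left out), and 2 under normexp and 14 with array weights after genistein. For genistein under dexamethasone they were 4 under normexp, 20 with slide as a fixed block, 27 with array weights and 7 without control dexamethasone replicates 2 and 3.

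With the replicate number as a replicate block, the members called were 2, 2, 0, 0 and 1 and the listed genes 17, 5, 0, 0 and 14 in the same order of comparisons (controls, after genistein, interaction, genistein under vehicle, genistein under dexamethasone), and no member's call changed.

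Signs that changed were of differences not called, with the exception of Igfbp1 in controls (-0.97 under normexp). In controls, median scaling gave 0.01 for Igf2r, 0.06 for Igfbp4 and 0.10 for Igfbp7, and Igfbp7 was 0.04 with quantile normalization and 0.01 with slide as a fixed block. After genistein, array weights gave -0.17 for Igfbp4 and -0.12 for Igfbp7, leaving out genistein vehicle replicates 3 and 4 gave -0.16 and -0.14, and normexp gave 0.05 for Igfbp2. For the interaction, Igf1r was -0.09 with array weights, -0.03 with median scaling, -0.08 with normexp, -0.13 with slide as a fixed block and -0.29 without genistein vehicle replicates 3 and 4. Igfbp2 was -0.04 with array weights and -0.16 and -0.02 without either pair of arrays, Igfbp3 was 0.20 without control dexamethasone replicates 2 and 3, and Igfbp5 was 0.22 with missing-array probes dropped. Igfbp7 was -0.10, -0.01, 0 and -0.01 with array weights, median scaling, quantile normalization and without genistein vehicle replicates 3 and 4. For genistein under vehicle, Igf2 was 0.01 with median scaling, and Igfbp7 was 0.14, 0.05, 0.06, 0.14 and 0.17 with array weights, median scaling, normexp, slide as a fixed block and without genistein vehicle replicates 3 and 4, which also gave 0.23 for Igfbp3 and 0.10 for Igfbp4. For genistein under dexamethasone, Igfbp5 was -0.09 with array weights, -0.07 with median scaling and -0.02 with normexp, Igfbp4 was 0, -0.02 and -0.03 with array weights, median scaling and without control dexamethasone replicates 2 and 3, and Igfbp7 was -0.02 with quantile normalization.

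With single arrays left out, the ranges that crossed 0 were -0.22 to 0.03 for Igfbp7 in controls, and after genistein -0.76 to 0.02 for Igfbp2, -0.03 to 0.20 for Igfbp4 and -0.14 to 0.17 for Igfbp7. For the interaction they were -0.22 to 0.18 for Igf1, -0.14 to 0.33 for Igf1r, -0.29 to 0.19 for Igfbp3 and -0.01 to 0.30 for Igfbp7. For genistein under vehicle they were -0.14 to 0.04 for Igf2, -0.02 to 0.76 for Igfbp2 and -0.14 to 0.16 for Igfbp7, and under dexamethasone -0.06 to 0.13 for Igfbp5.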
